A study of Mus musculus with 12 samples.

Results

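Alveolar type 1 cells are the broad, thin cells that cover most of the gas-exchange surface of the lung, and they lie against the capillary endothelium across a shared basement membrane. They are renewed by alveolar type 2 cells, the cuboidal cells that make surfactant, which pass through a transitional state after injury. Genes that mark type 1 cells encode membrane receptors and structural proteins, anchors and regulators of intracellular signals, and a few secreted proteins. The 10 genes described here are Ager, Hopx, Pdpn, Cav1, Rtkn2, Akap5, Clic5, Emp2, Sec14l3 and Igfbp2, out of 21564 genes measured. They were chosen by name from the symbols on the deposited table, with 1 probe set for each, and the rule that names them uses no measured value, though earlier results of these data were known when it was written.

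The study used 12 Affymetrix arrays of lung RNA to ask how obese mice respond to ozone (O3). All mice were female and on a C57BL/6 background by the labels. The labels describe purchase at 6 weeks and 4 further weeks of growth, giving an age of 10 weeks, in a text that names only db/db mice and is repeated for the WT array, so the age of the WT mouse is less sure. The RNA is recorded as coming from the left lungs. The paper's methods describe RNA from the right lung, so the side is less sure. O3-exposed mice gave 8 of the arrays: 3 of db/db mice that received an antibody against the cytokine IL-17A, 4 of db/db mice that received an isotype control antibody, and 1 of a wildtype (WT) mouse that received the isotype antibody. The other 4 were from air-exposed db/db mice with the isotype antibody. Mice of the db/db strain have no long-form leptin receptor in any tissue and are obese. The O3-exposed mice breathed 2 ppm O3 for 3 h and were studied 24 h later. The labels do not state that each array is a separate animal, so p-values measure the spread between these arrays, which may be partly technical. There was no WT air group and no anti-IL-17A air group, so the response of WT mice to O3 and the effect of the antibody in air were not measured.

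Signals are RMA values on the log2 scale, so that a difference of 1 is a doubling, and signals of different probe sets were not compared as levels. The array medians lay between 4.75 and 4.90. Replicate 1 of the anti-IL-17A group stood apart, with a mean correlation of 0.947 with the other arrays against 0.972 to 0.982 for the rest. Anti-IL-17A replicate 1, isotype O3 replicate 4 and air replicate 3 also had a high signal for Ucp1, the uncoupling protein of brown fat (at least 10.12, against at most 5.08 in the other arrays). The mean signal of 10 skeletal muscle genes reached 8.20 in the isotype O3 group and 7.75 in air, against group medians of 4.33 and 4.40. In the anti-IL-17A group it was at most 4.60, and on the WT array 4.25. Markers of lung cells were present throughout. Sftpc, a surfactant protein of type 2 cells, lay between 11.4 and 12, Scgb1a1, the secretoglobin of club cells, between 10.94 and 11.60, and Pecam1, an endothelial adhesion protein, between 10.25 and 10.77. Foxj1, the regulator of ciliated cells, lay between 4.26 and 5.12, close to the array medians. In whole lung, fewer cells of a type and less RNA per cell cannot be told apart.

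All 10 type 1 genes were read by a probe set that matched the same single gene in the deposited table and in the array's annotation. The mean signals of these probe sets lay between percentiles 76.7 and 99.8 of all probe sets, with Igfbp2 the dimmest of the 10 and Cav1 the brightest.

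**Figure D1:**
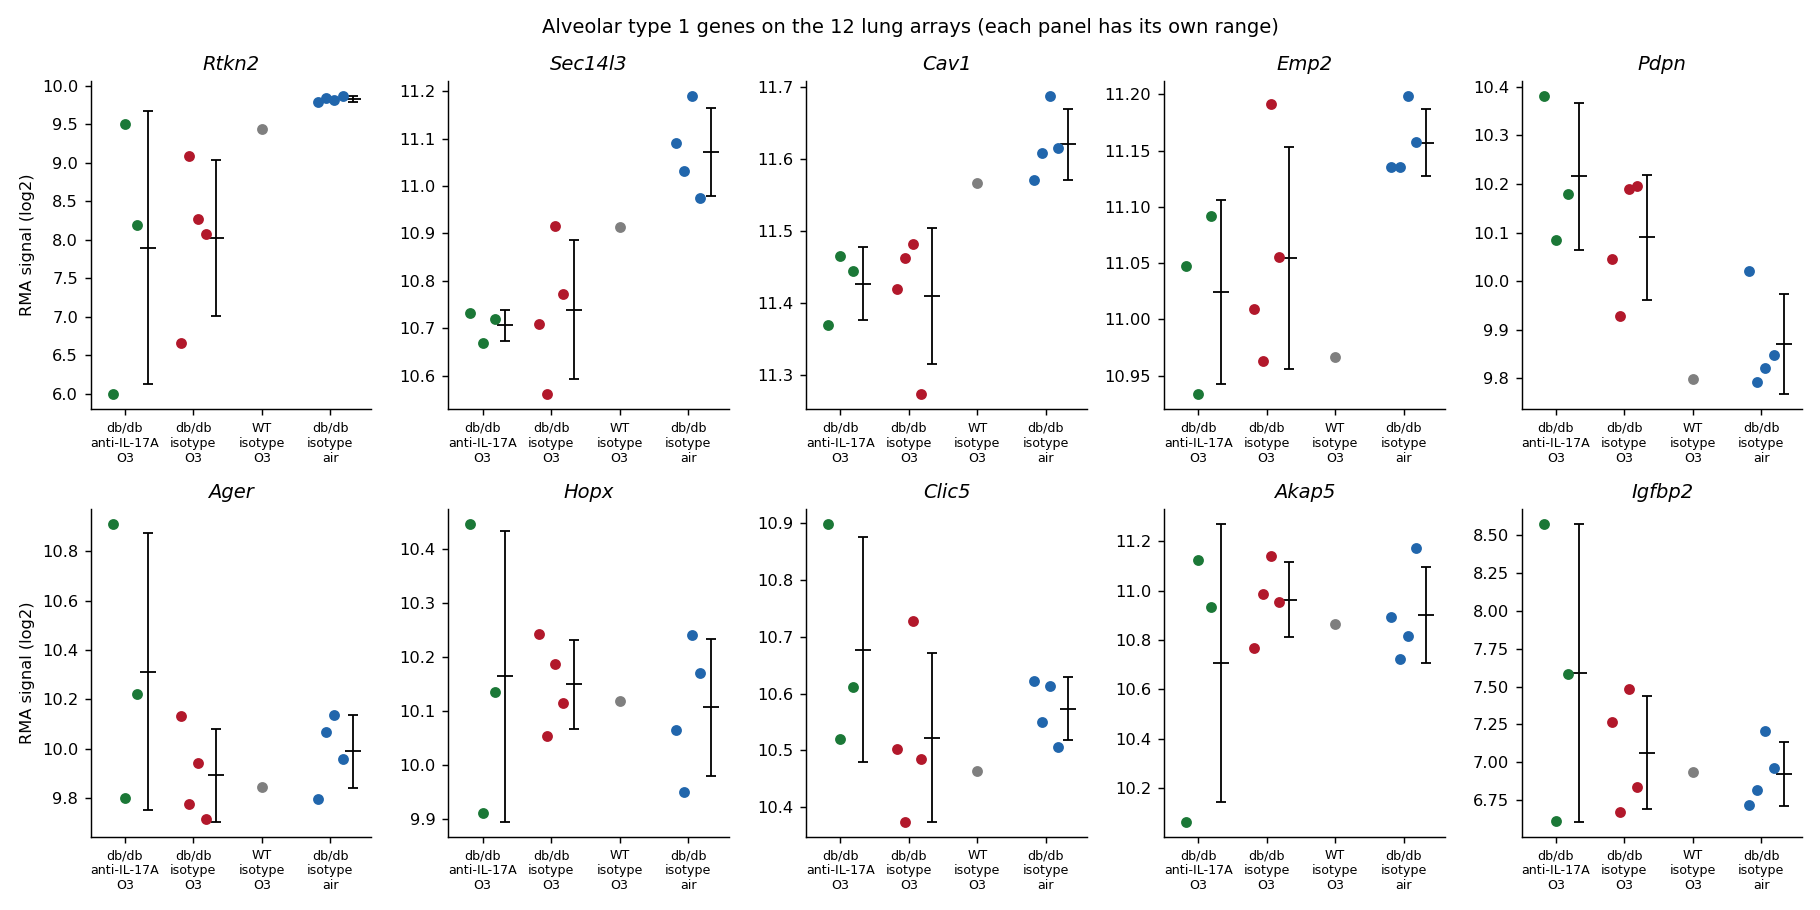
Signal (log2, vertical axis) of the 10 genes on each array, with 1 panel per gene and its own range. Points are arrays and black bars are the mean and SD of groups of 3 or 4. In the panels of Rtkn2, Sec14l3 and Cav1 all 4 db/db isotype O3 arrays lie below all 4 air arrays, and the spread of Rtkn2 is wide in both groups of db/db mice exposed to O3.

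Comparison of O3 with air, both under the isotype antibody in db/db mice, asked how the type 1 genes stood 24 h after exposure. None of the 10 passed an adjusted p of 0.05 in the limma fit to all arrays, in which 225 of 21564 genes (1.04%) were called. At an unadjusted p under 0.05 in the same limma fit there were 4 of the 10 genes, Rtkn2, Sec14l3, Cav1 and Pdpn, against 15.1% of all genes. Between these groups the arrays did not overlap for Rtkn2, Sec14l3 and Cav1, all lower after O3. Of all genes, 6.62% had non-overlapping arrays with O3 lower and 15.4% in either direction. The median difference of the 10 genes was -0.07, against 0.00 over all genes, with 4 of the 10 above 0 and 6 below. The count of 225 rests on the set of arrays: without any 1 of the 8 arrays of both groups limma called 0 to 14 genes, and without any 1 anti-IL-17A array 362 to 897, with 0 of the 10 genes in each.

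Rtkn2, which encodes rhotekin-2, a scaffold protein of intracellular signals, had the widest difference. Its signal was 6.66, 9.09, 8.27 and 8.07 on the 4 isotype O3 arrays, against 9.78, 9.84, 9.81 and 9.87 on the 4 air arrays. Every O3 array lay below the air arrays, but the O3 arrays were spread over 2.43 log2 units and the air arrays over 0.08. The mean was 8.02 ± 1.01 after O3 and 9.83 ± 0.03 in air (SD, n = 4 each), a difference of -1.80 on the log2 scale, or 0.287-fold. Over all genes tested, 0.288% had a larger difference in either direction. With limma on all 12 arrays the standard error was 0.67, the 95% confidence interval -3.28 to -0.32 and the adjusted p = 0.230. The exact two-sided permutation test gave an unadjusted p = 0.0286, the smallest that 70 splits of 8 arrays allow. Every gene whose arrays do not overlap between these groups reaches it, 15.4% of all genes. With limma on only the 8 arrays of both groups, Rtkn2 was the 1 type 1 gene called (adjusted p = 0.0353), where 7.75% of all genes were called. In that fit the call held without O3 replicate 1, at a difference of -1.35 (adjusted p = 0.0176), or without O3 replicate 2, at -2.16 (adjusted p = 0.00835). It was lost without any 1 of the other 6 arrays (adjusted p = 0.0667 to 0.0902).

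Sec14l3 encodes a member of the Sec14 family of lipid-binding proteins. Its signal was 10.71, 10.56, 10.92 and 10.77 after O3, against 11.09, 11.03, 11.19 and 10.97 in air. The highest O3 array came within 0.06 of the lowest air array without reaching it. The difference was -0.33 (95% confidence interval -0.53 to -0.13), with an adjusted p = 0.109 by limma. The exact permutation test gave an unadjusted p = 0.0286, which restates that the arrays did not overlap. Of the club and ciliated cell genes given further on, 3 of 11 and 3 of 17 were called lower by limma on 12 arrays, against 0.445% of all genes. The part of those genes in the Sec14l3 difference was not tested.

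Cav1 encodes caveolin-1, the coat protein of caveolae, which endothelial cells and fibroblasts also make. The O3 arrays had signals of 11.42, 11.46, 11.48 and 11.27, against 11.57, 11.61, 11.69 and 11.62 in air. The groups were separate by 0.09 between the nearest arrays. The mean was 11.41 ± 0.09 after O3 and 11.62 ± 0.05 in air (SD, n = 4 each), a difference of -0.21 (95% confidence interval -0.37 to -0.05) with an adjusted p = 0.198 by limma. Among 18 endothelial genes 0 were called by limma, with a median difference of -0.10. At an unadjusted p under 0.05 by limma there were 3 of them, all lower, against 15.1% of all genes. The mean signal of the 18 genes was 8.22 to 8.57 after O3 and 8.52 to 8.59 in air, and its part in the Cav1 difference was not tested.

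Pdpn, podoplanin, a sialoglycoprotein of the apical membrane of type 1 cells that lymphatic endothelium also carries, had the highest difference of the 10. Its signal was 10.04, 9.93, 10.19 and 10.20 after O3, against 10.02, 9.79, 9.82 and 9.85 in air. The groups overlapped because air replicate 1 was above O3 replicate 2. The difference was 0.22 (95% confidence interval 0.00 to 0.44), with an adjusted p = 0.326 by limma and an unadjusted p = 0.0571 by the exact permutation test. Of 7 lymphatic markers 0 were called by limma, with 0 at an unadjusted p under 0.05 and a median difference of 0.06.

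The other 6 genes overlapped between O3 and air, with differences of -0.10 to 0.14 and adjusted p of 0.580 to 0.925 by limma. Emp2, a membrane protein with 4 spans in the family of peripheral myelin protein, had signals of 11.01, 10.96, 11.19 and 11.06 after O3 against 11.14, 11.14, 11.20 and 11.16 in air. In it 3 of the 4 O3 arrays lay below every air array. Ager, the receptor for advanced glycation end products, which type 1 cells carry on their basal membrane, had signals of 10.13, 9.78, 9.94 and 9.72 after O3 against 9.80, 10.07, 10.14 and 9.96 in air. Its difference of -0.10 had a 95% confidence interval of -0.55 to 0.35, which spans falls and rises alike. Akap5, an anchor that holds protein kinase A at the membrane, differed by 0.06 (95% confidence interval -0.40 to 0.52). Clic5, of the family of intracellular chloride channels, differed by -0.05 (-0.28 to 0.18), and Hopx, a small homeodomain protein that does not bind DNA, by 0.04 (-0.22 to 0.30). Igfbp2, a secreted binding protein of insulin-like growth factors, differed by 0.14, with the second widest interval of the 10, -0.63 to 0.91.

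**Figure D2:**
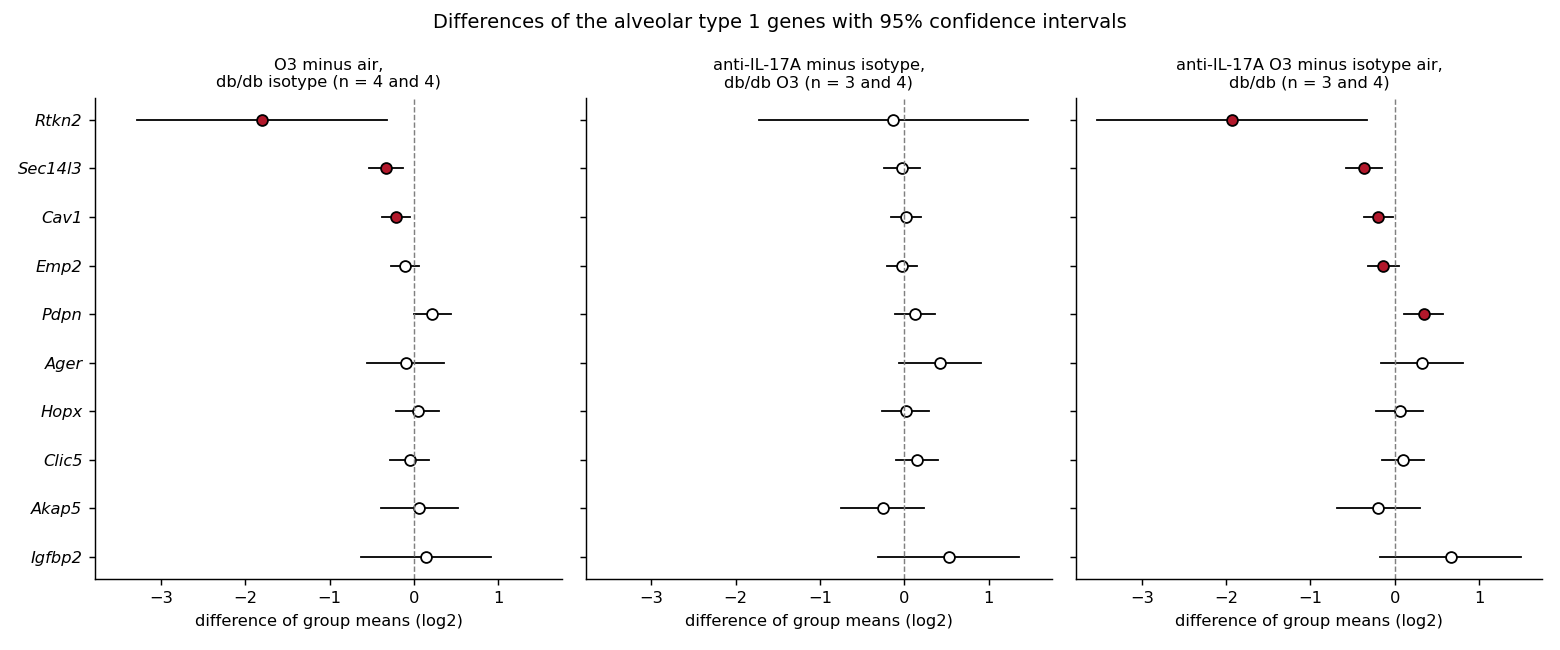
Difference of group means (log2, horizontal axis) for each gene in 3 comparisons, with 95% confidence intervals from the limma fit to 12 arrays. Filled points are genes whose arrays did not overlap between the groups. The Rtkn2 interval runs from -3.28 to -0.32 for O3 minus air, while the other 9 points lie between -0.33 and 0.22.

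The RefSeq promoter windows, 250 bases before to 50 after a gene's start on build GRCm38.p6, held 12 windows for 9 of the 10 genes, all but Rtkn2. The letter patterns TGANTCA, of AP-1 factors, GGAATG, of TEAD factors, and TATAAA, the TATA box, were sought on both strands, and none of them overlapped another. TGANTCA was in 1 of the 12 windows, against 7.81% of 32851 promoters, GGAATG was in 0 of 12, against 14.7%, and TATAAA was in 1 of 12, against 13.6%. The promoters of Cav1 and Sec14l3 are shown because their arrays did not overlap, and the second window of Igfbp2 because it held the 1 match to TGANTCA. Capitals mark a match, which in Cav1 is the reverse complement of TATAAA, 221 bases before the start, and in Igfbp2 lies 39 bases before the start.
Cav1, chr6:17306085-17306384, plus strand: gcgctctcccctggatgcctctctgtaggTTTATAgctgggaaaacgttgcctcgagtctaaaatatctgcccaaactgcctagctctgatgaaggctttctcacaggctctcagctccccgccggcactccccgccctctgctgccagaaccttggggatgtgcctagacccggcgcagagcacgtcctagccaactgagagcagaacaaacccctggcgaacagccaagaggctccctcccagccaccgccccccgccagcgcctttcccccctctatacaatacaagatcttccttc
Sec14l3, chr11:4064603-4064902, plus strand: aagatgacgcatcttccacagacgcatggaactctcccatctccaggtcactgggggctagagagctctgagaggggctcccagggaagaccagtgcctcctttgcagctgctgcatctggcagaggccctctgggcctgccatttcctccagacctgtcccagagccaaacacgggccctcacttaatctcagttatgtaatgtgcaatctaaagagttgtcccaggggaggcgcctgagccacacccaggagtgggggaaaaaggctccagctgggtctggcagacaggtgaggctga
Igfbp2, chr1:72825137-72825436, plus strand: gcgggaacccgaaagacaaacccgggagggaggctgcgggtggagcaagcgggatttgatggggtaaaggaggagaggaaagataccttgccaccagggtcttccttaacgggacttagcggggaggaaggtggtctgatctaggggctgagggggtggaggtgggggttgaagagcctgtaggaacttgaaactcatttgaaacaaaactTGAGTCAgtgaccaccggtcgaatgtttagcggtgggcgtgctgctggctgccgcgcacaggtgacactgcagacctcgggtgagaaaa
The Sec14l3 window held none of the 3 patterns, as did 10 of the 12 windows in all. A match is a description of the letters and was not tested as a binding site.

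Other genes known from type 1 cells were tested as a list. Of 26 such genes 1 was called by limma after O3, against 0.598% of all genes called higher. It was Krt7, a keratin of simple epithelia, with signals of 10.42, 10.16, 10.16 and 10.04 after O3 against 9.28, 8.96, 9.03 and 9.27 in air. The groups were clearly separate and the difference was 1.06 (adjusted p = 0.0388 by limma). Itgb6, the beta chain of an integrin that activates TGF-beta, differed by 0.45 (adjusted p = 0.155 by limma) and Lmo7, a junction protein, by 0.39 (adjusted p = 0.205). The median of the 26 was 0.03. Among 12 regulators of alveolar type 1 and type 2 fate 0 were called by limma, 0 had an unadjusted p under 0.05 and the median was 0.04. Tead4, a partner of Yap1, had the smallest p of them, at a difference of 0.32 (adjusted p = 0.450 by limma), followed by Klf5 at 0.41 and Cebpa at -0.24.

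Lists around single type 1 genes held 1 call by limma on 12 arrays, a fit that called 1.04% of all genes. In that fit 15.1% of all genes had an unadjusted p under 0.05. Igf1, the growth factor that insulin-like growth factor binding proteins hold, was the 1 of 10 genes of that axis called by limma. Its signal was 8.30, 8.51, 9.13 and 8.53 after O3 against 7.35, 7.20, 7.59 and 7.29 in air, a difference of 1.26 (adjusted p = 0.0405 by limma). Igfbp2 itself differed by 0.14, Igfbp3 by 0.44 and Igfbp1 by -0.16. Of 12 ligands and partners of the Ager receptor 0 were called by limma and 0 had an unadjusted p under 0.05, with S100a6 at 0.25 and S100a9 at -1.09 having the smallest p. Of 8 genes of caveolae 0 were called by limma on 12 arrays and 3 had an unadjusted p under 0.05. With only the 8 arrays of both groups, where 7.75% of all genes were called, 3 of the caveolae genes were called by limma. They were Pacsin2, a membrane-bending protein, at 0.54 (adjusted p = 0.0122), Prkcdbp, a cavin, at 0.53 (adjusted p = 0.0262), and Sdpr, another cavin, at -0.39 (adjusted p = 0.0433). Of 8 partners of podoplanin 0 were called by limma (1 at an unadjusted p under 0.05), and of 9 partners of Akap5 also 0 (2 unadjusted). Cd44, a podoplanin partner, was at 0.33, and Prkar2b, a regulatory subunit of protein kinase A, at -0.85, and neither passed. Of 12 family members of the type 1 genes 0 were called by limma on 12 arrays (1 unadjusted), with Clic6 at -0.83 and Emp1 at 0.58 the first by p.

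Genes of neighbouring epithelial cells were counted in the same way. Of 18 type 2 genes 0 were called by limma after O3, with a median of -0.08. At an unadjusted p under 0.05 by limma there were 3 of them, all lower, against 15.1% of all genes. Lyz2 had the smallest p at -0.30 (adjusted p = 0.117 by limma), and Sftpc was at -0.24. Of 20 genes of the transitional state 4 were called higher by limma, against 0.598% of all genes, with a median of 0.86 over the 20. They were Tnip3, an inhibitor of NF-kappaB signals, at 2.09, Lcn2, an iron-binding lipocalin, at 1.71, and the EGF receptor ligands Areg, at 1.53, and Hbegf, at 1.05. The keratins Krt8 at 0.84, Krt18 at 1.07 and Krt19 at 1.45 were not called (adjusted p = 0.167, 0.102 and 0.0909 by limma). Cldn4 at 0.71 and Sfn at 0.54 were not called either (adjusted p = 0.330 and 0.640). With only the 8 arrays of both groups limma called Krt8, Krt18, Krt19 and Cldn4 but not Sfn. Which cells gave these signals was not tested. Of 11 club cell genes 3 were called lower by limma (Scgb3a2 at -1.31, Aldh1a1 at -0.50 and Cbr2 at -0.57), against 0.445% of all genes called lower, and of 17 ciliated cell genes 3 (Hydin at -2.12, Dnahc9 at -1.42 and Ccdc40 at -0.72). The mean signal of the club list was 9.34 to 9.55 after O3 against 9.88 to 10.09 in air, and that of the ciliated list 5.32 to 5.91 after O3 against 6.71 to 6.95 in air. The part of these airway genes in the Sec14l3 difference was not tested. With only the 8 arrays of both groups, where 7.75% of all genes were called, limma called 11 of the 20 transitional genes, 5 of the 11 club genes and 13 of the 17 ciliated genes, while of the 18 type 2 genes it called 0 and of the 26 other type 1 genes 2, Krt7 and Lmo7.

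**Figure D3:**
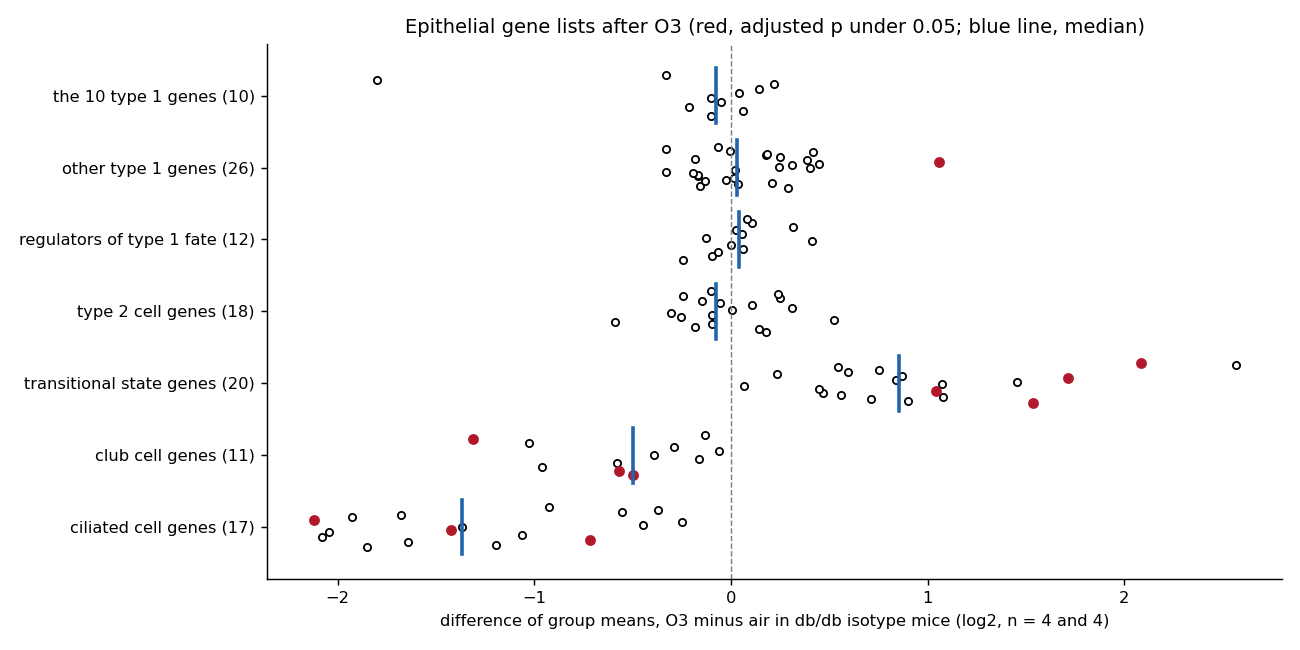
Difference of O3 minus air in db/db isotype mice (log2, horizontal axis) for each gene of 7 lists, with 1 point per gene. Red points passed an adjusted p of 0.05 and the blue line is the list's median, which was -0.07 for the 10 type 1 genes, 0.86 for the transitional list and -1.37 for the ciliated list.

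Comparison of both antibodies after O3, in db/db mice, asked whether anti-IL-17A altered these genes. The limma fit to 12 arrays called 0 of the 10 and 0 of 21564 genes (0.0%). At an unadjusted p under 0.05 there were 0 of the 10 and 996 genes (4.62%). No type 1 gene had groups that did not overlap, against 4.05% of all genes. The median difference of the 10 was 0.02, against 0.04 over all genes.

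Igfbp2 and Ager had the highest differences. Igfbp2 was at 8.58, 6.61 and 7.58 with anti-IL-17A against 7.27, 6.67, 7.48 and 6.84 with the isotype antibody, and Ager at 10.91, 9.80 and 10.22 against 10.13, 9.78, 9.94 and 9.72. In both, anti-IL-17A replicate 1 was the highest of the 12 arrays and anti-IL-17A replicate 2 lay within or below the isotype arrays. The difference was 0.53 for Igfbp2 (95% confidence interval -0.31 to 1.36) and 0.42 for Ager (-0.07 to 0.91), and both had an adjusted p = 0.832 by limma. Without replicate 1, which stood apart, they were 0.03 and 0.12. Akap5 differed by -0.26 and by 0.07 without that array, where its signal was 10.06 against 10.72 to 11.17 on the other 11 arrays.

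Rtkn2 was at 6.00, 9.50 and 8.19 with anti-IL-17A against 6.66, 9.09, 8.27 and 8.07 with the isotype antibody. The 2 groups covered much the same range, and the difference of -0.13 had a 95% confidence interval of -1.73 to 1.47, which includes a change of several fold either way and takes the arrays as unpaired. The values of same-numbered arrays were close to each other, and with the replicate number as a block on only the arrays of both groups, chosen after seeing the data, the difference was -0.04 with a standard error of 0.24. Whether the numbers pair the arrays cannot be told from so few. Deviations over all genes correlated at 0.429 and 0.444 for 2 of the 3 shared numbers and at -0.131 for the other. Without anti-IL-17A replicate 1 the difference was 0.82. Cav1, Sec14l3, Emp2 and Hopx differed by -0.03 to 0.02, with intervals within -0.27 to 0.30. Pdpn was 0.13 higher with anti-IL-17A (95% confidence interval -0.11 to 0.36) and Clic5 0.15 higher (-0.09 to 0.40), and neither passed.

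Comparison of the anti-IL-17A O3 arrays with the isotype air arrays joins both antibody and exposure, and it shares its air arrays with the first comparison. The limma fit called 0 of the 10 genes and 0 of 21564 (0.0%), and at an unadjusted p under 0.05 there were 4 of the 10 against 16.6% of all genes. Arrays of 5 genes did not overlap, against 12% of all genes: Rtkn2, Sec14l3, Cav1 and Emp2 lower and Pdpn higher. Sec14l3 was at 10.73, 10.67 and 10.72 with anti-IL-17A and O3, against 10.97 to 11.19 in air. The difference was -0.36 (95% confidence interval -0.58 to -0.15, adjusted p = 0.177 by limma), beside -0.33 for isotype O3 minus air. Pdpn was at 10.38, 10.09 and 10.18, against 9.79 to 10.02 in air, a difference of 0.34 (95% confidence interval 0.11 to 0.58, adjusted p = 0.210 by limma). Rtkn2 differed by -1.93, Cav1 by -0.19 and Emp2 by -0.13. When anti-IL-17A replicate 2 was left out, limma called 12.6% of all genes, among them Rtkn2 at -2.73 (adjusted p = 0.0280), Pdpn at 0.41 (adjusted p = 0.0490) and Igfbp2 at 1.16 (adjusted p = 0.0340). When replicate 1, which stood apart, was left out instead, limma called 0 of all genes, with Rtkn2 at -0.98 (adjusted p = 0.579), Pdpn at 0.26 (adjusted p = 0.435) and Igfbp2 at 0.17 (adjusted p = 0.877).

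The db/db isotype O3 arrays were also set beside the single WT array, given as WT minus db/db, so that a negative value means higher in db/db mice. The limma fit took the spread of the single WT array from the other groups and called 0 of the 10 genes and 0 of 21564 (0.0%). At an unadjusted p under 0.05 there were 0 of the 10 and 703 genes (3.26%). The WT array lay outside the range of the 4 db/db arrays for 3 of the 10 genes, against 39.9% of all genes. Rtkn2 was at 6.66 to 9.09 in db/db mice against 9.44 in the WT mouse, Cav1 at 11.27 to 11.48 against 11.57, and Pdpn at 9.93 to 10.20 against 9.80. The differences were 1.42 (95% confidence interval -0.93 to 3.76), 0.16 (-0.10 to 0.41) and -0.29 (-0.63 to 0.05). An exact permutation test of 1 array against 4 cannot go below p = 0.200.

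Across the 4 groups the mean of Rtkn2 was lowest with anti-IL-17A and O3 (7.90 ± 1.77, SD, n = 3), then isotype O3 (8.02 ± 1.01, n = 4), the WT array (9.44) and air (9.83 ± 0.03, n = 4). Of these neighbours the first pair did not differ beyond their spread, and the WT array was 0.34 below the lowest air array. For Sec14l3 the order was anti-IL-17A O3 (10.71 ± 0.03), isotype O3 (10.74 ± 0.15), WT O3 (10.91) and air (11.07 ± 0.09), with the WT array inside the isotype O3 range. For Pdpn the order ran the other way, with anti-IL-17A O3 highest (10.22 ± 0.15), then isotype O3 (10.09 ± 0.13), air (9.87 ± 0.10) and the WT array (9.80), which lay inside the air range.

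**Figure D4:**
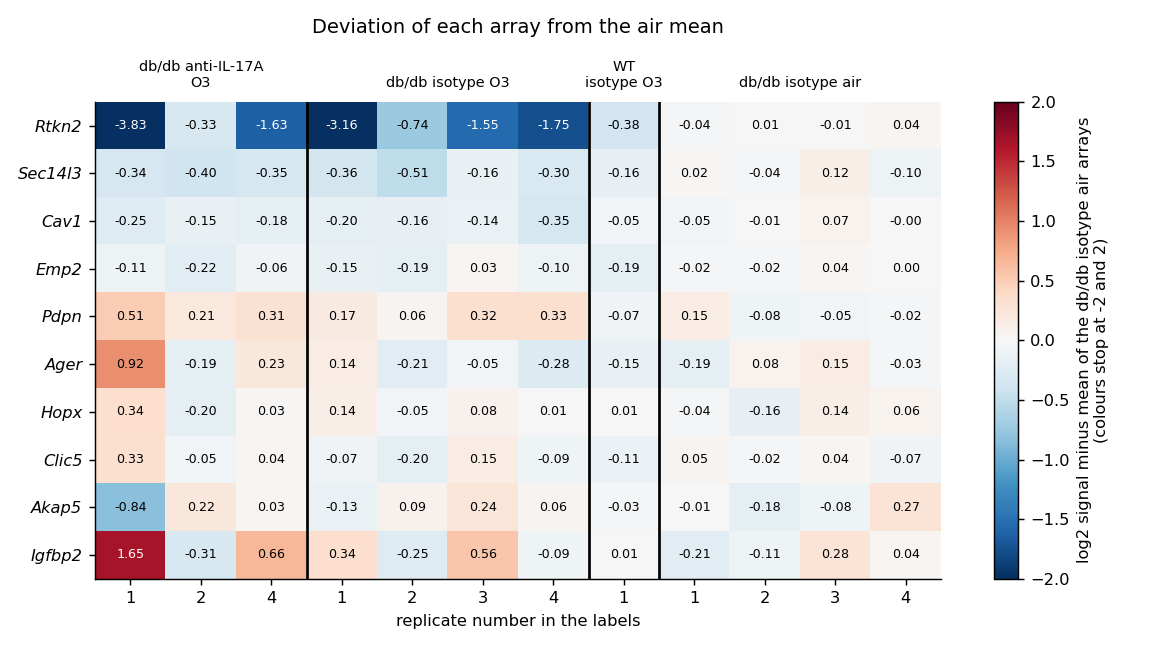
Signal of each array minus the mean of the db/db isotype air arrays (log2, colour and printed value) for the 10 genes in rows and the 12 arrays in columns. Rtkn2 is below the air mean on all 8 O3 arrays, from -0.33 to -3.83, and anti-IL-17A replicate 1 holds the highest deviation of Igfbp2 (1.65) and Ager (0.92).

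Within groups the genes varied by very different amounts. In the isotype O3 group the SD of Rtkn2, 1.01, lay at percentile 99.2 of all genes, and in air its SD of 0.03 lay at percentile 2.95. Cav1 had an SD of 0.09 after O3, at percentile 22.6, and 0.05 in air. Igfbp2 was the second most variable of the 10 in each group of db/db mice exposed to O3, with SDs of 0.98 and 0.37. Of the 10 genes, 5 had their highest signal of all 12 arrays on anti-IL-17A replicate 1 and 2 their lowest.

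Over the 12 arrays Ager and Igfbp2 followed each other closely (Pearson r = 0.922, and 0.741 without anti-IL-17A replicate 1). Ager ran opposite to Akap5 (r = -0.850, and -0.402 without that array). Rtkn2 ran opposite to Pdpn (r = -0.776, and -0.637 without it) and to Igfbp2 (-0.764 and -0.525), and with Cav1 (0.743 and 0.730). These are descriptions over 12 arrays that share groups and 1 array that stands apart. With group means removed, over the db/db arrays, r for Rtkn2 was -0.571 with Pdpn, -0.839 with Igfbp2 and 0.386 with Cav1. On the same footing r for Ager was 0.935 with Igfbp2 and -0.853 with Akap5. These within-group values include anti-IL-17A replicate 1, the array that stands apart, and were not computed without it. For each type 1 gene the gene with the highest Pearson r over the 12 arrays was found among all genes with a probe set of their own. Rtkn2 was most like Samd12 (r = 0.978), Sec14l3 like Gstm3, a glutathione transferase (0.941), Cav1 like Tmem100, a membrane protein of endothelium (0.940), and Pdpn like Dok1, an adaptor of tyrosine kinases (0.948). Ager was most like Lamb2, a laminin chain (0.985), Akap5 like Appl1, an endosomal adaptor (0.989), Igfbp2 like Clstn1 (0.976), Hopx like Zbtb8a (0.933), Clic5 like Hhipl1 (0.930) and Emp2 like Gna13, a G protein subunit (0.861). Without anti-IL-17A replicate 1 these values lay between 0.834 and 0.973. For the mean of the 10 standardised genes the nearest were Ctxn2 (0.896), Reg3d (0.858), Elovl5 (0.851), C1ql2 (0.840) and Rnf181 (0.828).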

How the data were processed

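The authors' notes on processing list RMA in oligo, and limma, without versions. Both deposited tables hold RMA values (log2 scale; background correction, quantile normalization and probe summary), and their largest difference was 0. Deposited columns of the authors' own O3 and air comparison (log2 fold changes, p-values and limma scores) were not used.

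Of 35556 probe sets 25254 carried a symbol, and 21564 genes were tested on the brightest probe set, single-gene ones first, with no filter on dim signals. The fit was limma 3.58.1 in R 4.3.3 on all 12 arrays (1 mean per group, 8 residual df), two-sided, with Benjamini-Hochberg adjustment over 21564 genes and calls at an adjusted p under 0.05. Exact two-sided permutation of group means was run per gene. The procedure was tested on simulated data with independent noise in each gene. No simulated array stood apart, so that feature of these data was not covered. Precision is limited by the number of arrays.

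The 10 genes and the lists were chosen with earlier results of these data known. The rule for names took all 10, the nearest gene by Pearson r for each, the 5 nearest to their mean, and in each other list up to 4 called in each direction or, in lists tied to type 1 cells, the 3 with the smallest p where fewer passed. Some that it takes are left to the counts. Promoter sequences are RefSeq's (GRCm38.p6). Alternatives were other normalizations, filters, variance models, array weights, replicate blocks, sets of arrays and thresholds.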

Additional observations from a re-analysis of the deposited data

How the results depend on the processing

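With 3 or 4 arrays in a group and 1 for WT, the intervals stay wide, most of all for Rtkn2. For isotype O3 minus air, 346 of 350 alternative values of the 10 genes kept the direction of the first fit, for anti-IL-17A minus isotype 303 of 340, for anti-IL-17A O3 minus isotype air 329 of 340, and for WT minus db/db 283 of 290. Many alternatives, such as the second deposited table, the variance models and the thresholds, cannot change a difference. Leaving out the same single array also entered under more than 1 fit. These shares therefore do not measure how steady a direction was. No gene whose direction turned was called in the first fit, where 0 of the 10 passed in each comparison. The cause of the changes below was not tested.

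For O3 minus air, array weights gave 2 calls by limma (Rtkn2 and Sec14l3, among 2455 genes) and only the arrays of both groups 1 (Rtkn2). Leaving out single arrays gave 0 in the fit to all arrays and 0 to 1 with both groups only. For anti-IL-17A O3 minus isotype air, array weights gave 4 (Igfbp2, Pdpn, Rtkn2 and Sec14l3, among 5700 of 21564 genes) and leaving out single arrays 0 to 3, the 3 (Igfbp2, Pdpn and Rtkn2) without anti-IL-17A replicate 2 (among 2718 genes). In the other comparisons every alternative gave 0. Called genes of 21564 for O3 minus air were 225 in the first fit, 148 after quantile normalization, 20 after subtraction of array medians, 2455 with array weights, 1672 with both groups only, 1 without the 3 arrays high in Ucp1, 0 without moderation, 651 at an adjusted p under 0.1, 0 to 897 without single arrays in the fit to all arrays, and 739 to 2676 without single arrays with both groups only.

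Whether the replicate numbers pair the arrays could not be settled from so few arrays. Deviations of same-numbered arrays correlated at -0.410 to 0.291 between O3 and air and at -0.175 to 0.120 between anti-IL-17A O3 and air. Between anti-IL-17A and isotype after O3 the values were 0.429, 0.444 and -0.131. With the replicate number as a block in the fit to all arrays 0 of the 10 genes were called for O3 minus air (Rtkn2 adjusted p = 0.116 by limma) and 234 genes in all. With the block and only the arrays of both groups, chosen after seeing the data, 1 was called (Rtkn2, adjusted p = 0.0497) and 1116 genes. Under the block Sec14l3 turned to 0.017 for anti-IL-17A minus isotype (0.026 with both groups only), Emp2 to 0.015 with both groups only, and Akap5 to 0.19 for WT minus db/db.

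Without the 3 arrays high in Ucp1, in the fit to all arrays and, chosen after seeing the data, with both groups only, Ager turned to 0.0091 for O3 minus air. For anti-IL-17A minus isotype, Akap5 turned to 0.063, Hopx to -0.14, Igfbp2 to -0.043 and Rtkn2 to 0.84. For anti-IL-17A O3 minus isotype air, Akap5 turned to 0.10 and Hopx to -0.039. Array weights turned Emp2 to 0.0013, Hopx to -0.035 and Rtkn2 to 0.23 for anti-IL-17A minus isotype, and Akap5 to 0.014 for anti-IL-17A O3 minus isotype air. Quantile normalization turned Cav1 to -0.00070, and subtraction of array medians Emp2 to 0.0054 and Sec14l3 to 0.0026, for anti-IL-17A minus isotype.

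Leaving out single arrays moved Hopx between -0.0097 and 0.088 for O3 minus air. For anti-IL-17A minus isotype it moved Akap5 between -0.47 and 0.065, Cav1 between -0.028 and 0.046, Emp2 between -0.064 and 0.015, Hopx between -0.13 and 0.14, Rtkn2 between -0.93 and 0.82 and Sec14l3 between -0.092 and 0.026. For anti-IL-17A O3 minus isotype air it moved Akap5 between -0.40 and 0.13, Clic5 between -0.0071 and 0.18 and Hopx between -0.084 and 0.18. For WT minus db/db it moved Ager between -0.11 and 0.032, Clic5 between -0.11 and 0.0091 and Igfbp2 between -0.26 and 0.0071.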
